A study of Mus musculus with 6 samples.

Results

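Cytochrome P450 genes encode haem enzymes that insert oxygen into fatty acids, sterols, retinoids, steroid hormones and foreign compounds. Most sit in the endoplasmic reticulum and take electrons from P450 reductase, some with help from cytochrome b5, and a few sit in mitochondria and use ferredoxin. In the bladder they are best known for converting compounds carried in urine, and outside the liver several shape lipid and hormone signals within a tissue. The members were all genes on the array whose symbol is Cyp, a family number, 1 letter and a further number, read from probe sets annotated to that gene alone and leaving out Cyp51. The rule gave 70 of the 18193 genes with such a probe set, measured by 93 of 45101 probe sets.

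The cells came from bladders of male-labelled FVB/N x C57BL/6 mice at postnatal day 7, and RNA of DsRed-positive cells was put on 3 arrays and RNA of DsRed-negative cells on 3. The epithelium was loosened with trypsin, lifted off as a layer by microdissection and digested to single cells. All 6 samples carry the same label for the reported gene, the allele B6;129P-Upk1btm1Zhang/J, so that allele is shared by both groups; Upk1b encodes a uroplakin of the urothelial surface. Arrays are numbered 1, 2 and 5 in each group. The labels record unpooled samples, but give neither what drives DsRed, nor how DsRed-positive cells were parted from the rest, nor whether same-numbered samples came from 1 animal. The p-values therefore reflect only how far these samples vary, which may be technical.

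The check of the labels came first. The sample titles read uroplakin, the array number and +ve or -ve. High uroplakin signal in the +ve group therefore checks those titles and is no independent result. Upk1b had normalized log2 signals of 16.48, 16.70 and 16.67 in DsRed-positive arrays 1, 2 and 5, against 13.27, 12.25 and 11.53 in DsRed-negative arrays 1, 2 and 5. Of 10 differentiated urothelial markers, 10 were higher in DsRed-positive cells, and their mean log2 signal per array was 14.5 to 14.7 there and 9.95 to 11.1 in DsRed-negative cells. Of 6 basal urothelial markers 5 were higher too, with list means of 12.7 to 13.5 in DsRed-positive cells and 10.2 to 11.2 in DsRed-negative cells. The DsRed-negative arrays were rich in transcripts of other cells although the label of both groups is bladder epithelial cell: 9 of 9 fibroblast and matrix markers were lower in DsRed-positive cells, with list means of 9.85 to 10.4 per array against 16.2 to 16.4. The number 1 arrays of both groups went against the label male. Xist had 15.08 in DsRed-positive 1 and 15.48 in DsRed-negative 1, and at most 8.89 on the other 4 arrays, while Y-linked Eif2s3y had 6.32 and 5.44 there and at least 11.78 on the others. The number of arrays limits the precision throughout.

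The P450 family was split between the groups, with different members higher on each side. Of 70 genes, 44 had a probe set bright enough to be tested. Among these, 5 were higher in DsRed-positive cells (11.4%, where 9.21% of all 14222 tested genes were higher) and 6 were lower (13.6%, where 11.3% of all tested genes were lower). These shares were near those of all genes. In either direction 11 members passed, where 20.5% of all genes did. The shares of all genes, 9.21% higher and 11.3% lower, are the background for every count of a group or list below. The higher genes were Cyp4f15, Cyp4f39, Cyp39a1, Cyp2j9 and Cyp11a1, and the lower ones Cyp2c23, Cyp1b1, Cyp2d22, Cyp27a1, Cyp7b1 and Cyp20a1. The other 33 tested members did not pass, with log2 changes from -1.56 to 1.05. The median log2 change of the tested members was -0.22, against 0.04 over all tested genes. Calls are those of limma at a threshold of 0.05, with p adjusted by Benjamini and Hochberg's method across every probe set tested, and every log2 change is DsRed-positive minus DsRed-negative.

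Of these 11 calls, 6 were kept in every fit that left out 1 array: Cyp4f15, Cyp39a1, Cyp1b1, Cyp2c23, Cyp2d22 and Cyp27a1. Without both arrays numbered 1, 2 genes were higher (Cyp4f15 and Cyp39a1) and 2 lower (Cyp1b1 and Cyp2c23), in a fit of 2 arrays against 2. The scaling moved the balance: 3 members were higher and 9 lower with the values as deposited, and 5 and 5 when arrays were aligned by their medians. Array medians before normalization differed by -0.54 on average (log2, DsRed-positive minus DsRed-negative).

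**Figure D1:**
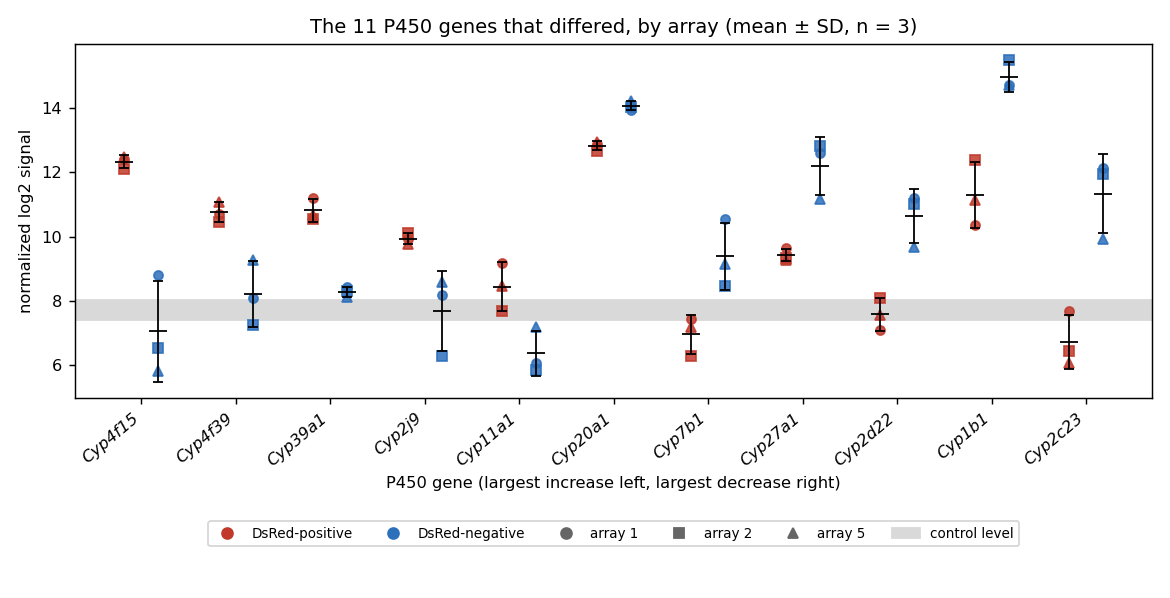
Normalized log2 signal (vertical axis) of the 11 P450 genes that differed, for each DsRed-positive (red, left) and DsRed-negative (blue, right) array, with symbols for array numbers and bars for mean ± SD. The grey band is the range of the control level over the 6 arrays, 7.41 to 8.03. In all 11 genes the groups do not overlap, which also held for 43.4% of all tested genes.

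Most members were dim. A control level was set on each array as the 95th percentile of 27 bacterial control probe sets, and it lay between 7.41 and 8.03 on the log2 scale. Of the 70 genes, 11 were above it on all 6 arrays, 20 on all DsRed-positive arrays and 16 on all DsRed-negative arrays, and 12 on none. The 26 genes that were not tested had signals of 5.46 to 8.99 and are described only by that range. They held 16 of the 32 members of families 2a to 2g and 3a, a set best known from liver. The 4 measured Cyp3a genes that lie close together (Cyp3a16, Cyp3a44, Cyp3a11 and Cyp3a25) were all among the untested. With no filter all 70 genes entered the fit, and 4 were higher and 6 lower, the 5th higher gene, Cyp2j9, having lost its call.

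Among the family 1 enzymes, which oxidise polycyclic aromatic hydrocarbons and are induced through the aryl hydrocarbon receptor, Cyp1b1 was lower in DsRed-positive cells. Cyp1b1 also acts on oestrogens and retinol. It had 10.37, 12.38 and 11.13 in DsRed-positive arrays 1, 2 and 5, against 14.70, 15.49 and 14.70 in DsRed-negative arrays 1, 2 and 5. Every DsRed-positive array lay below every DsRed-negative one, and DsRed-positive 2 was the closest to them. The log2 change was -3.67 ± 0.55 (SE), a 12.8-fold decrease (limma adjusted p = 0.00391). Its signal on all 6 arrays was above the control level. Of the 3 Cyp1b1 probe sets only the brightest passed; the others gave -2.83 (adjusted p = 0.0644) and 0.13. The deposited intensity of the brightest was 1283, 5415 and 2216 in DsRed-positive cells, against 26897, 54565 and 28458 in DsRed-negative cells.

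Cyp1a1, the best known target of the receptor, did not pass. It had 9.27, 10.53 and 9.24 in DsRed-positive arrays, against 8.63, 9.02 and 8.96 in DsRed-negative arrays. The groups did not overlap, but the change was 0.81 ± 0.44 (SE, limma adjusted p = 0.252). Groups without overlap were common, at 22% of all tested genes in the higher direction and 21.4% in the lower. Cyp1a2, whose product is mainly a liver enzyme, lay around the control level with a change of -0.18.

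The promoters of both genes are shown because the receptor's core motif, GCGTG on either strand, is the sequence through which the family is induced. Capitals mark that motif. The windows are the 250 bases before the RefSeq start in GRCm38.p6, chr17:79715062-79715311 on the minus strand for Cyp1b1 and chr9:57697363-57697612 on the plus strand for Cyp1a1, each read 5′ to 3′.
Cyp1b1: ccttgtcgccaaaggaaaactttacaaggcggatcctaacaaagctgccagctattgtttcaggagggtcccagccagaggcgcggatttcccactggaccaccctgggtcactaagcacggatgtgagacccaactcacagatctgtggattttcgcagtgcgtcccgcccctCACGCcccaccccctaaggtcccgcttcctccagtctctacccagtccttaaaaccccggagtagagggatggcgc
Cyp1a1: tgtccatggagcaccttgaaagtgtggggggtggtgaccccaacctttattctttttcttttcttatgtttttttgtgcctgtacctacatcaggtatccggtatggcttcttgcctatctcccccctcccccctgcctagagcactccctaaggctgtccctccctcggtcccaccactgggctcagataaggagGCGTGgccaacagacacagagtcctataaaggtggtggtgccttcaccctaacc
Each window held 1 match, which began 76 bases before the start in Cyp1b1 and 54 bases before it in Cyp1a1. The motif was in 28.2% of 32851 RefSeq promoter windows of this length and in 12 of the 51 P450 genes that have a window. A match is a description of letters, not of binding.

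Genes of the same receptor pathway gave a mixed record. Of 7 tested genes, 2 were lower in DsRed-positive cells, 0 higher and 5 did not pass, with a median log2 change of -0.80. Ahrr, the repressor that competes with the receptor and is itself one of its targets, had 7.43, 6.41 and 7.81 in DsRed-positive arrays, against 11.45, 11.97 and 11.81 in DsRed-negative arrays. Its change was -4.52 ± 0.44 (SE, limma adjusted p = 0.000592), with DsRed-positive 1 and 2 below the control level. Arnt, the receptor's partner, changed by -1.99 ± 0.40 (limma adjusted p = 0.0143), but only 1 of its 5 probe sets passed and the call was lost without any 1 of the 3 DsRed-positive arrays (adjusted p up to 0.0588). Ahr itself had 14.91, 13.87 and 14.73 in DsRed-positive arrays, against 14.25, 13.26 and 14.24 in DsRed-negative arrays, and did not pass (adjusted p = 0.417). Aldh3a1 (-2.12), an aldehyde dehydrogenase, did not pass. The brightest probe set of Tiparp, an ADP-ribosyltransferase gene induced by the receptor, did not pass at -0.76, while 1 of its 3 tested probe sets was called lower.

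Beside the genes lower in DsRed-positive cells, markers of several other cell types moved the same way. Besides the fibroblast list, 5 of 7 tested smooth muscle and mural markers, 4 of 5 endothelial, 4 of 6 leukocyte and 2 of 4 mast cell markers were lower in DsRed-positive cells, and 1 mural marker was higher. None of the 4 tested nerve and Schwann cell markers passed, with a median log2 change of -0.73. List means per array were 8.38 to 8.66 against 12.0 to 12.4 for smooth muscle, 7.85 to 7.97 against 9.84 to 10.7 for endothelium, 7.98 to 8.53 against 11.1 to 11.3 for leukocytes and 6.72 to 7.11 against 9.28 to 10.7 for mast cells. Cnn1, Cpa3 and Ms4a2 were at or below the control level on every DsRed-positive array. The part of these cells in the P450 differences was not tested, and fewer cells of a type cannot be told apart here from less RNA per cell.

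Of the 32 genes in families 2a to 2g and 3a, which handle drugs and other foreign compounds, 16 were tested. Among these, 2 were lower in DsRed-positive cells (11.3% of all tested genes were) and 0 higher (9.21% of all). Cyp2c23, a mouse epoxygenase of arachidonic acid, had the largest decrease in the family. Its signal was 7.68, 6.42 and 6.07 in DsRed-positive arrays, against 12.15, 11.93 and 9.93 in DsRed-negative arrays. The change was -4.62 ± 0.69 (SE, limma adjusted p = 0.0038). DsRed-positive 2 and 5 lay below the control level, so the size of the change rests partly on such signal. Its only probe set has the suffix _s_at, used for probe sets that match more than 1 transcript, so signal from related Cyp2c transcripts cannot be told apart. No other tested Cyp2c gene passed: the 5 of them had changes from -0.63 to 0.46.

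Cyp2d22, the mouse gene often compared with human CYP2D6, had 7.08, 8.09 and 7.55 in DsRed-positive arrays, against 11.21, 11.01 and 9.67 in DsRed-negative arrays. Its change was -3.06 ± 0.51 (SE, limma adjusted p = 0.00595); a second probe set gave -0.95 and did not pass. DsRed-negative 5 was the lowest array of its group for Cyp2d22 as well as for Cyp2c23, by more than 1 log2 unit. Cyp2e1, the ethanol-oxidising enzyme, was high on a single array: 7.79, 7.26 and 7.02 in DsRed-positive arrays, against 10.89, 7.63 and 7.61 in DsRed-negative arrays. It did not pass (change -1.35, limma adjusted p = 0.328). Cyp2d13 (-1.50, adjusted p = 0.0817) passed as lower without quantile normalization. The 14 members of the group that did not pass had changes from -1.50 to 0.46.

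Subfamily 2j and family 4, whose best known substrates are arachidonate and other fatty acids, held 3 of the 5 higher genes. Of 17 members, 9 were tested, 3 were higher in DsRed-positive cells (9.21% of all tested genes were) and 0 lower (11.3% of all). The absence of a lower gene here depends on the grouping by subfamily, since the arachidonate epoxygenase gene Cyp2c23, which was lower, was counted with the other Cyp2c genes. Cyp4f15, of a subfamily that hydroxylates leukotrienes and other fatty acids at their far end, had the largest increase of all P450 genes. It had 12.40, 12.09 and 12.48 in DsRed-positive arrays, against 8.81, 6.52 and 5.80 in DsRed-negative arrays. The DsRed-positive arrays were close together, and DsRed-negative 2 and 5 lay below their control levels. The change was 5.28 ± 0.73 (SE, limma adjusted p = 0.00261), a fitted 38.9-fold whose size rests partly on that low signal. The deposited intensity of Cyp4f15 was 5948, 4418 and 5796 in DsRed-positive cells, against 453, 66.9 and 19.9 in DsRed-negative cells.

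Cyp4f39, which in mouse skin hydroxylates the very long fatty acids of barrier ceramides, had 10.71, 10.46 and 11.09 in DsRed-positive arrays, against 8.08, 7.25 and 9.28 in DsRed-negative arrays. Its change was 2.55 ± 0.54 (SE, limma adjusted p = 0.0167), and its call was lost without DsRed-positive 1 (adjusted p = 0.0695) or 5 (0.0672). Cyp2j9, an arachidonate-metabolising member known from mouse brain, had 9.92, 10.11 and 9.77 in DsRed-positive arrays, against 8.19, 6.28 and 8.60 in DsRed-negative arrays. The lowest value by far was DsRed-negative 2, below its control level. The change of 2.24 ± 0.60 (SE, limma adjusted p = 0.0415) lost its call without any 1 of the DsRed-positive arrays or DsRed-negative 1 (adjusted p up to 0.136), with the values as deposited (0.0526), with no filter (0.0593) and with an offset of 1 (0.0862).

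Close relatives of these genes did not pass. Cyp4f16 had 10.28, 9.92 and 10.29 in DsRed-positive arrays, against 10.67, 10.59 and 10.51 in DsRed-negative arrays (change -0.42, limma adjusted p = 0.397). Its other probe set, with the suffix _x_at, gave 1.43 and did not pass. Cyp4f13 had a change of 0.23 and Cyp2j6 of -0.25. Cyp4v3, the brightest member of the group on average, had 12.59, 12.40 and 12.60 in DsRed-positive arrays, against 12.72, 11.89 and 12.62 in DsRed-negative arrays. On this probe set, with the suffix _s_at, the groups overlapped (change 0.12 ± 0.36). The other Cyp4v3 probe set gave 1.09 without overlap of the groups and did not pass (limma adjusted p = 0.0555). Cyp4b1, known in rodent bladder for activating aromatic amines, had 7.63, 8.06 and 8.25 against 8.63, 9.33 and 9.02 in DsRed-negative arrays. The change of -1.01 did not pass (limma adjusted p = 0.097), but it passed as lower without quantile normalization.

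A run of 5 measured Cyp4f genes lies on chromosome 17, in the RefSeq order Cyp4f39, Cyp4f16, Cyp4f15, Cyp4f14 and Cyp4f13. Genes that were not measured were left out of this order, so others may lie between. Higher and uncalled genes alternated among the measured ones: Cyp4f39 and Cyp4f15 were higher, Cyp4f16 listed between them and Cyp4f13 were not, and Cyp4f14 was too dim to test. On chromosome 4, Cyp2j9 was higher. Cyp2j6, the measured member before it, did not pass, and Cyp2j5, the measured member after it, was not tested. On chromosome 15, Cyp2d22 stood at the end of a run of 8 measured Cyp2d genes and was the only 1 of the 3 tested to be called. Of all 70 members, 49 lay within 500 kb of another member, and 5 of the 27 tested among these were called, near the 20.5% of all tested genes. Outside such runs, 6 of 17 tested members were called.

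**Figure D2:**
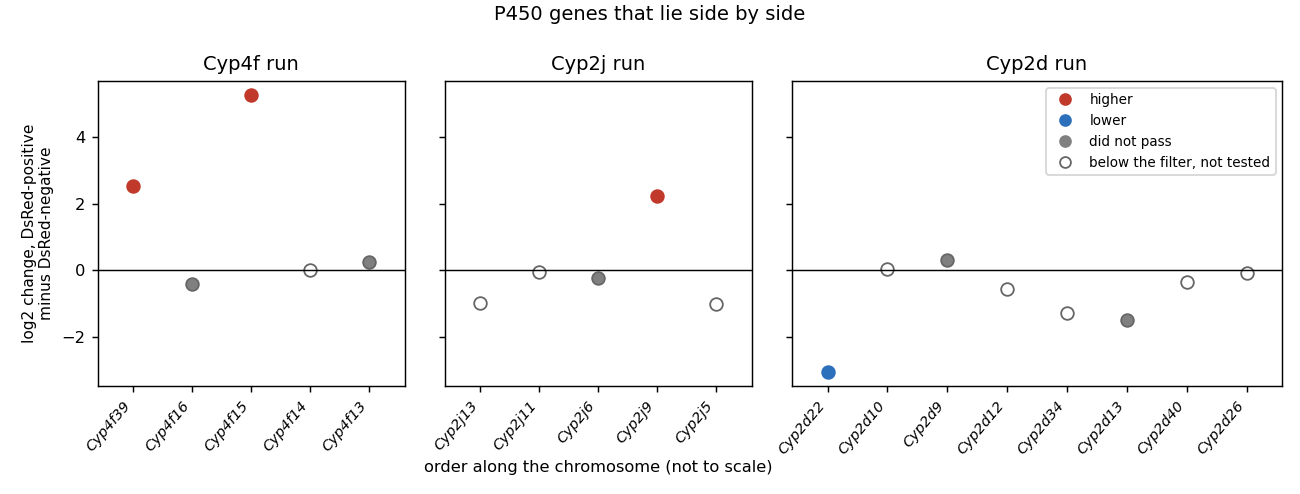
Log2 change between DsRed-positive and DsRed-negative arrays (vertical axis) for measured P450 genes in their order along 3 chromosome runs, with spacing not to scale. Red and blue points passed as higher or lower, grey points did not pass and open points were below the filter. Within each run, called genes come next to measured genes that were not called.

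Promoter windows of 4 of the Cyp4f genes are shown for comparison, since 2 were higher and 2 were not. Capitals mark the CCAAT box, CCAAT on either strand, a common promoter element. All are the 250 bases before the RefSeq start in GRCm38.p6: chr17:32452473-32452722 for Cyp4f39, chr17:32685409-32685658 for Cyp4f15 and chr17:32536307-32536556 for Cyp4f16 on the plus strand, and chr17:32947362-32947611 for Cyp4f13 on the minus strand, each 5′ to 3′.
Cyp4f39: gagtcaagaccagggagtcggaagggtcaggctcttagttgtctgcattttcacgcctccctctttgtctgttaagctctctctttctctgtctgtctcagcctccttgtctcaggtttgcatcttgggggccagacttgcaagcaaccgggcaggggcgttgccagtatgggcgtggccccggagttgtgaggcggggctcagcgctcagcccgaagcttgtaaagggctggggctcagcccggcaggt
Cyp4f15: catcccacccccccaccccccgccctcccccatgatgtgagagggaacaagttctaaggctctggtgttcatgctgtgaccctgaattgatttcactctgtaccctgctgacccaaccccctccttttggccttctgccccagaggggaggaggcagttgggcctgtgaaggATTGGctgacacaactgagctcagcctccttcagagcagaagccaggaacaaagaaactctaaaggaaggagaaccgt
Cyp4f16: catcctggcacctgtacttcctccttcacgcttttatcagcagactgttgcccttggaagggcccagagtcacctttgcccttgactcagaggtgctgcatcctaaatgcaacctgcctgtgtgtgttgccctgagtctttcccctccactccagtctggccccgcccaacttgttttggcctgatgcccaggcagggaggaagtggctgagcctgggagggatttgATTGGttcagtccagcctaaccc
Cyp4f13: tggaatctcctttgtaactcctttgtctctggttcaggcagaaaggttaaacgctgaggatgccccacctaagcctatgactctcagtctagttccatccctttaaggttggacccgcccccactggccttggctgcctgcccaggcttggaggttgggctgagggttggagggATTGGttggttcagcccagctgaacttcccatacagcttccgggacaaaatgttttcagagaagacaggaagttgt
The box was in Cyp4f15, beginning 78 bases before the start, in Cyp4f13 at 76 and in Cyp4f16 at 23, and these letters were not in the Cyp4f39 window. It therefore occurred beside a higher gene and beside genes that did not pass. It was in 33.8% of the 32851 windows and in 21 of the 51 P450 genes with a window.

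Epoxides made by P450 enzymes are opened by epoxide hydrolases, and these were listed with P450 relatives outside the symbol rule: prostanoid synthases and Cyp51, of cholesterol synthesis. Of 5 tested genes 2 were higher and 1 lower, with a median log2 change of 1.47. Ephx2, the soluble epoxide hydrolase, had 11.56, 11.29 and 11.41 in DsRed-positive arrays, against 8.87, 7.89 and 9.24 in DsRed-negative arrays. Its change of 2.75 ± 0.42 (SE, limma adjusted p = 0.00424) was opposite in sign to that of the epoxygenase gene Cyp2c23. Ephx1 (1.47) did not pass. Ptgis, prostacyclin synthase, had 8.22, 7.37 and 8.64 in DsRed-positive arrays, against 14.95, 15.67 and 15.53 in DsRed-negative arrays, a change of -7.31 ± 0.43 (limma adjusted p = 9.82e-05), with DsRed-positive 2 below the control level. Cyp51 was higher by 2.64 on its brightest probe set, 1 of 3 called, and lost its call without DsRed-positive 1 (adjusted p = 0.0751) or 2 (0.0693) or DsRed-negative 1 (0.0504).

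Enzymes of sterol and bile acid hydroxylation divided in both directions: of 6 tested, 1 was higher in DsRed-positive cells, 2 lower and 3 did not pass. Cyp39a1, which hydroxylates oxysterols on the way to bile acids, had 11.21, 10.55 and 10.68 in DsRed-positive arrays, against 8.44, 8.29 and 8.12 in DsRed-negative arrays. All 6 values were above their control levels, and the groups lay more than 2 log2 units apart. The change was 2.53 ± 0.34 (SE, limma adjusted p = 0.00228), the smallest p of the 44 tested P450 genes.

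Cyp27a1, the mitochondrial sterol hydroxylase, had 9.64, 9.34 and 9.28 in DsRed-positive arrays, against 12.60, 12.82 and 11.17 in DsRed-negative arrays. Its change was -2.78 ± 0.49 (SE, limma adjusted p = 0.00761), with signal above the control level on every array. Cyp7b1, which acts on the oxysterols that Cyp27a1 makes, had 7.42, 6.27 and 7.17 in DsRed-positive arrays, against 10.53, 8.47 and 9.15 in DsRed-negative arrays. All 3 DsRed-positive values lay at or below the control level, so Cyp7b1 was at least 3.71-fold lower (limma adjusted p = 0.0288). The called probe set of Cyp7b1 has the suffix _s_at; without such probe sets another gave -1.40 (adjusted p = 0.147), and the call was also lost without any 1 of the DsRed-positive arrays or DsRed-negative 5 (adjusted p up to 0.101). Cyp46a1, the cholesterol hydroxylase of neurons, was at -1.56 without overlap of the groups (limma adjusted p = 0.0876), and passed as lower without quantile normalization. Cyp7a1 (-0.18), the rate-limiting enzyme of bile acid synthesis in liver, and Cyp8b1 (0.19) overlapped between the groups.

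**Figure D3:**
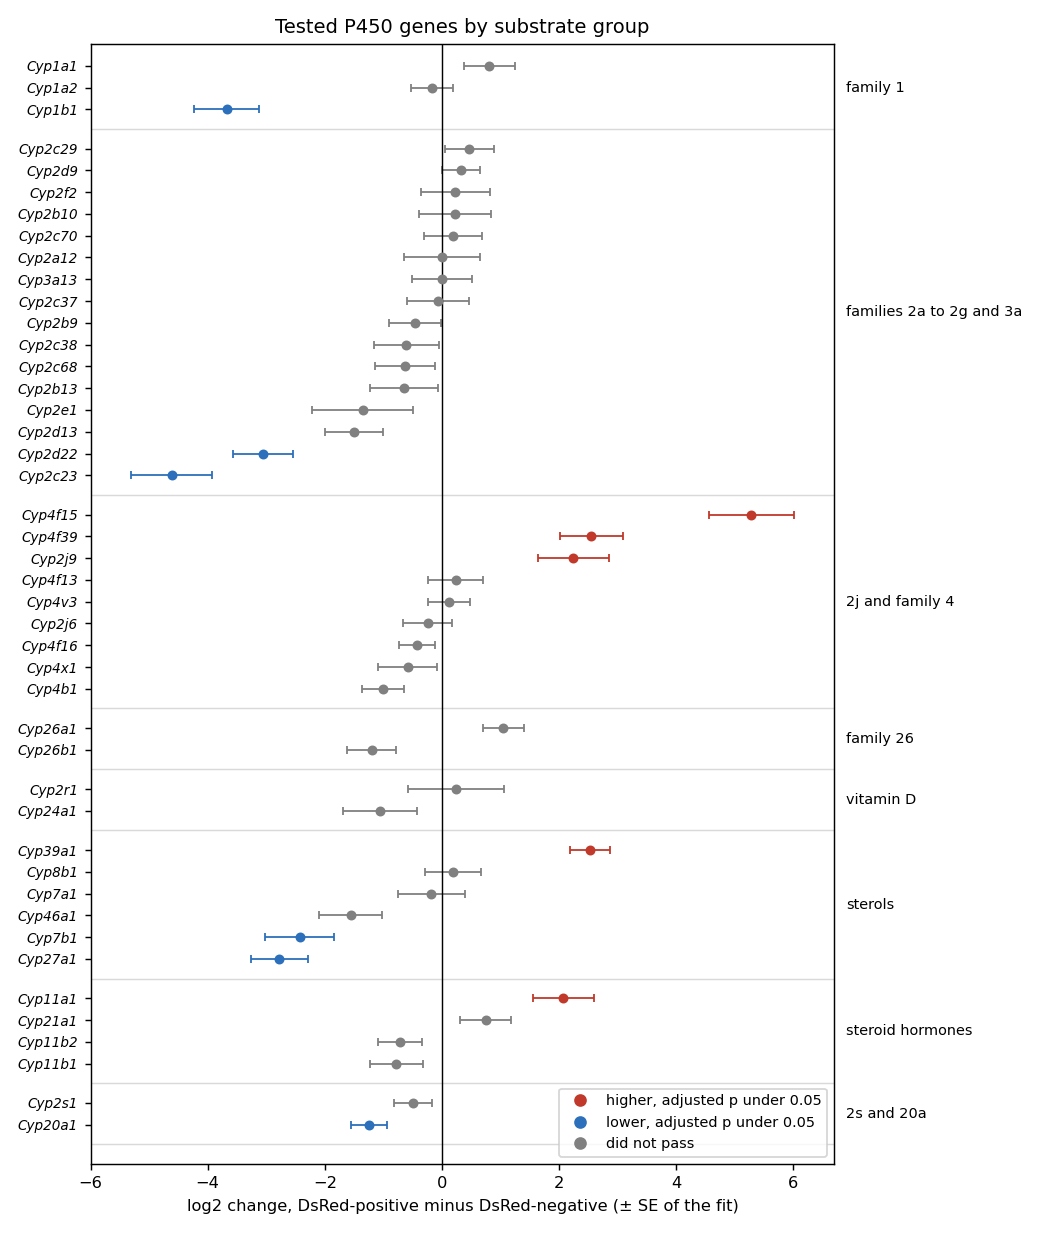
Log2 change of the 44 tested P450 genes (horizontal axis, DsRed-positive minus DsRed-negative, bars are the SE of the fit), grouped by subfamily and best known substrate, with the arachidonate epoxygenase gene Cyp2c23 among families 2a to 2g and 3a. Red points (5) and blue points (6) passed the test; 2j and family 4 hold 3 of the 5 higher genes, and the sterol group holds genes on both sides of 0.

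The retinoic acid-clearing enzymes Cyp26a1 and Cyp26b1 lay on opposite sides of 0, and neither passed. Cyp26a1 had 8.49, 8.88 and 8.48 in DsRed-positive arrays, against 8.02, 7.28 and 7.40 in DsRed-negative arrays, a change of 1.05 ± 0.35 (SE, limma adjusted p = 0.085). Its DsRed-negative signal was above the control level on array 1 only. Cyp26b1 had 9.11, 10.17 and 9.19 in DsRed-positive arrays, against 10.57, 11.14 and 10.37 in DsRed-negative arrays, a change of -1.20 ± 0.42 (SE, limma adjusted p = 0.0955). The groups did not overlap for either gene.

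Their promoters are shown because Cyp26a1 is induced by retinoic acid through a repeat near its start. Capitals mark the repeat, 2 copies of AGTTCA in one direction with 5 bases between them, searched on both strands, in the 250 bases before the RefSeq start in GRCm38.p6, chr19:37697558-37697807 on the plus strand for Cyp26a1 and chr6:84593811-84594060 on the minus strand for Cyp26b1, each 5′ to 3′.
Cyp26a1: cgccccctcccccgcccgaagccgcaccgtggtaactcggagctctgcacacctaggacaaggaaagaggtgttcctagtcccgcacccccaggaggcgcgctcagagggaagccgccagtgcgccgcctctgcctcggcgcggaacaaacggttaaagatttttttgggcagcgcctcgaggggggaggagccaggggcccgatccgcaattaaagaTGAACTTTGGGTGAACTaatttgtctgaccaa
Cyp26b1: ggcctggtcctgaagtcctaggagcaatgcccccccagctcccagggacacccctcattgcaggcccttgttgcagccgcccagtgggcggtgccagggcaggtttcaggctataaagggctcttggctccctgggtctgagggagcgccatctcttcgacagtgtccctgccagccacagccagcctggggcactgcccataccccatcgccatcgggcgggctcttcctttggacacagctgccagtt
The repeat began 32 bases before the start of Cyp26a1 and was in 7 of 32851 windows (0.0213%). These letters were not in the Cyp26b1 window.

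Among the vitamin D enzymes 2 of 3 genes were tested and neither passed. Cyp2r1, which starts vitamin D activation, had 8.72, 6.50 and 9.39 in DsRed-positive arrays, against 7.59, 7.21 and 9.08 in DsRed-negative arrays. It varied more within the groups than between them, and its change of 0.24 ± 0.82 (SE) turned its sign in several alternatives. Cyp24a1, which breaks vitamin D down, was at -1.06 (limma adjusted p = 0.293).

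Steroid hormone synthesis was represented by 5 genes, of which 4 were tested and 1 passed. Cyp11a1, the side-chain cleavage enzyme that starts steroid synthesis, had 9.19, 7.67 and 8.45 in DsRed-positive arrays, against 6.07, 5.86 and 7.17 in DsRed-negative arrays. All 3 DsRed-negative values were below the control level, so by group means this probe set was at least 1.54-fold higher (limma adjusted p = 0.0341). That bound is 0.63 log2 units, beside an SE of the fit of 0.53. The other 2 Cyp11a1 probe sets were below the filter, were not tested and pointed both ways (-1.80 and 0.56). The one at -1.80 went against the call without overlap of the groups. It was above the control level on 2 DsRed-negative arrays and 0 DsRed-positive arrays, so the direction for the gene is not settled. The call was lost without DsRed-positive 5, DsRed-negative 1 or DsRed-negative 2 (adjusted p up to 0.0998). Without DsRed-positive 1 the gene fell below the filter and was not tested, and without quantile normalization it did not pass (adjusted p = 0.066). The adrenal enzymes Cyp11b2, the brightest of the group on average, and Cyp11b1 were at -0.72 and -0.78, and Cyp21a1 at 0.74, none of which passed.

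Cyp20a1, a member with no settled substrate, and Cyp2s1, an enzyme of epithelia outside the liver, were bright on every array. Cyp20a1 had 12.89, 12.67 and 12.93 in DsRed-positive arrays, against 13.95, 14.04 and 14.23 in DsRed-negative arrays. On this probe set the replicates were tight, with an SD of 0.14 in each group (n = 3 each), and the change was -1.25 ± 0.31 (SE, limma adjusted p = 0.0313). Of the 3 Cyp20a1 probe sets only this brightest passed. The others gave -1.81 (limma adjusted p = 0.07) and -0.64 (0.465). This call was lost in all 6 fits without 1 array (adjusted p up to 0.113) and when arrays were aligned by their medians (-0.65, adjusted p = 0.203). Cyp2s1 had 12.11, 11.84 and 11.90 in DsRed-positive arrays, against 12.70, 12.44 and 12.20 in DsRed-negative arrays, and its change of -0.49 ± 0.32 (SE) did not pass (limma adjusted p = 0.337).

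Of 10 listed electron donors of P450 enzymes and their helpers, 7 were measured, and these were above the control level on every array. The gene of P450 reductase was not among these 7. Of the 7, all tested, 2 were higher in DsRed-positive cells and 0 lower, with a median log2 change of 0.80. Cytochrome b5, Cyb5a, had 15.45, 15.26 and 15.46 in DsRed-positive arrays, against 14.22, 13.73 and 13.58 in DsRed-negative arrays, a change of 1.55 ± 0.33 (SE, limma adjusted p = 0.018). Its call was lost without any 1 of the DsRed-positive arrays or DsRed-negative 5, with an adjusted p up to 0.0675. Cyb5b, the mitochondrial form, changed by 1.32 (limma adjusted p = 0.0488, and up to 0.146 when any 1 array other than DsRed-negative 1 was left out). Pgrmc1, a membrane protein that binds P450 enzymes, and Cyb5r1, a reductase, did not pass at 1.35 and 0.80. The ferredoxin Fdx1 had 0.65 and did not pass. Cyb5r3, another reductase, did not pass on its brightest probe set (0.37). Of its 4 tested probe sets, which ran from -0.73 to 2.29, 2 were called higher.

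Of 11 tested genes of haem synthesis and breakdown, 2 were higher and 0 lower, with a median log2 change of 0.07. Alad, an early enzyme of haem synthesis, had 12.93, 13.31 and 13.29 in DsRed-positive arrays, against 10.72, 11.84 and 11.29 in DsRed-negative arrays. Its change was 1.90 ± 0.39 (SE, limma adjusted p = 0.015), with both probe sets higher, and 0.0624 without DsRed-positive 2 and 0.0591 without DsRed-positive 5. Cpox, a later enzyme, changed by 1.49 (limma adjusted p = 0.0231, lost without any 1 of the 3 DsRed-positive arrays), on 1 of 3 probe sets, the lowest of which gave 0.29. Alas1, the rate-limiting enzyme outside red cells, did not pass (adjusted p = 0.0995), and Ppox, at 1.44, did not pass.

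Nuclear receptors that control P450 genes moved in both directions: of 14 tested, 3 were higher in DsRed-positive cells, 1 lower and 10 did not pass, with a median of -0.08. Pparg, a receptor of fatty acid metabolism and urothelial differentiation, changed by 4.23 ± 0.52 (SE, limma adjusted p = 0.00155). Vdr, the vitamin D receptor, had 8.98, 8.38 and 8.68 in DsRed-positive arrays, against 6.67, 6.12 and 6.74 in DsRed-negative arrays. Because all DsRed-negative values lay below the control level, Vdr was at least 1.83-fold higher (limma adjusted p = 0.00554). Rxra, the shared partner of these receptors, changed by 1.81 (limma adjusted p = 0.0144), on 1 of 2 probe sets, and lost its call without any 1 of the 3 DsRed-positive arrays (adjusted p up to 0.0682). Nr1h4, the bile acid receptor, had 6.54, 7.65 and 6.93 in DsRed-positive arrays, against 11.10, 10.38 and 10.84 in DsRed-negative arrays. Its change was -3.74 ± 0.41 (SE, limma adjusted p = 0.000976), with DsRed-positive 1 and 5 below the control level, so its size rests partly on such signal.

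**Figure D4:**
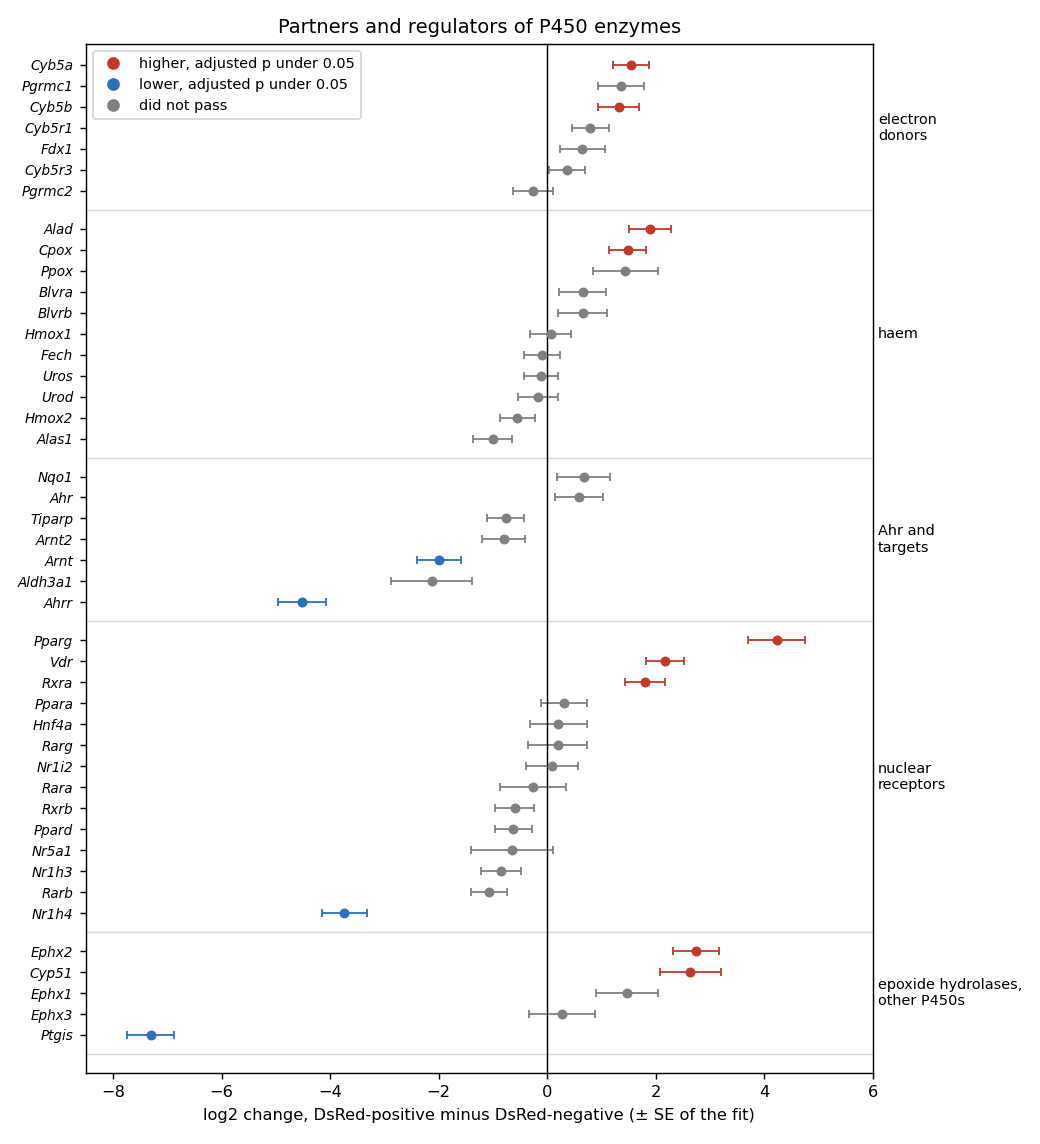
Log2 change of tested partners and regulators of P450 enzymes (horizontal axis, DsRed-positive minus DsRed-negative, bars are the SE of the fit). Of 44 genes, 9 passed as higher (red) and 4 as lower (blue); Ptgis at -7.31 and Pparg at 4.23 mark the ends of the range.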

How the data were processed

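Mouse Genome 430 2.0 arrays were hybridised with RNA amplified in 2 rounds, per the labels' protocols. The deposited values are linear probe set intensity made by the authors with GCOS, per the submitters' processing notes, with version and settings not given in the sources used here. All arrays shared a trimmed mean (2% off each end) of 1500.01, so they had been scaled. For testing, 39.84 (the 20th percentile) was added before log2, which understates changes of dim genes, and arrays were quantile normalized. Of the probe sets, 30175 had a mean over 7.18, the 33rd percentile, and entered limma 3.58.1 (lmFit, eBayes, two-sided) in R 4.3.3; the code was tested on simulated data. A gene was read from the brightest probe set annotated to it alone, with symbols of the platform annotation updated by gene ID (34741 of 34945 probe sets matched), and 4 probe sets naming a P450 gene with another gene were left out. "At least" folds are given where every array of the lower group lay at or below the control level, against the higher of that level and the array's own signal. They compare group means and carry no margin for the spread of the arrays.

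Members and lists were chosen with earlier results of these data known. Genes named by rule were Upk1b, every P450 gene called, the brightest P450 gene of each substrate group and the 4 smallest p of each partner list; others were named after their values were seen. Promoters and gene order are RefSeq's (GRCm38.p6); 51 of 70 members had a window, and the called genes Cyp2c23, Cyp2d22, Cyp7b1 and Cyp39a1 are not shown. Deviations from the group means correlated weakly between samples with the same number, at 0.145, 0.0372 and 0.0534 for numbers 1, 2 and 5. Correlations between different numbers ran from -0.0783 to 0.0138, and Xist and Eif2s3y set number 1 apart in both groups. The labels give no pairing, so the main fit used none, and whether the numbers mark pairs cannot be told here. Alternatives were no quantile normalization, alignment by medians, a block for the number, each array left out, other offsets, filters and probe set rules, trend with robust estimation and, chosen after seeing the data, both arrays numbered 1 left out.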

Additional observations from a re-analysis of the deposited data

How the results depend on the processing

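Without quantile normalization 3 P450 genes were higher and 9 lower, and the share of higher genes among all called fell to 37.6%, against 45% in the main result. With arrays aligned by their medians 2568 of all genes were higher, a share of 64.7%. Without both arrays numbered 1, in a fit of fewer samples, 2 P450 genes were higher and 2 lower, with 480 and 785 of all genes and 1 higher partner gene. Leaving out 1 array gave 2 to 5 higher and 4 to 5 lower P450 genes, 598 to 1276 higher and 1084 to 1474 lower among all genes, and 3 to 9 higher and 3 to 4 lower partner genes; the fewest higher P450 genes, 2, came without DsRed-positive 1 or DsRed-positive 5, and 3 came without DsRed-negative 1. Cyp2r1, which never passed, turned to -0.19 without quantile normalization and -0.22 without both arrays numbered 1, and ran from -0.35 to 1.09 without 1 array. Cyp4v3 ran from -0.13 to 0.28 without 1 array. With the array number as a replicate block 4 P450 genes were higher and 5 lower; Cyp20a1 (adjusted p = 0.0669), Cyp2j9 (0.0634), Cyb5b (0.0705) and Cpox (0.0562) lost their calls, and each array correlated best with its own number, a hint from the data and not the design. The cause of these shifts was not tested. Signal near the control level limits the size of changes in dim genes.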

Other observations

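Replicates of the tested P450 genes varied more in DsRed-negative cells: the median SD over genes was 0.45 log2 units in DsRed-positive cells and 0.64 in DsRed-negative cells, and 27 of 44 genes had the larger SD in DsRed-negative cells. The same share was not taken over all tested genes, so whether this is particular to P450 genes is not known. DsRed-negative 5 had the lowest signal of its group for Cyp2c23 (9.93), Cyp2d22 (9.67) and Cyp27a1 (11.17), while the mean of the fibroblast and matrix markers was 16.4 on that array, the highest of the 3 DsRed-negative arrays. These genes were picked after their values were seen, and the part of any cell type in this was not tested.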
